A study of Drosophila melanogaster with 249 samples.

Results

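Gene expression in the heads of 2 laboratory strains of Drosophila melanogaster, OreR and w1118, was compared in XX females and in XY males. The libraries compared were those that carried neither a deficiency (Df) nor tra2 alleles, with 3 each of OreR XX, OreR XY, w1118 XX and w1118 XY. These are 12 of the 249 libraries that the labels name and of the 235 libraries in the count table analysed here. OreR females were w+/w+ and OreR males w+/Y, w1118 females were w1118/w1118 and w1118 males w1118/Y, and the labels give both autosome pairs as wild type in all 4 groups. The labels do not name the strain of the w+ flies, and the name OreR comes from the series text and the methods. All flies were aged 5 d, and each library was made from poly-A+ RNA of a pool of 10 heads. The w1118 strain was the parental line of the DrosDel deficiency stocks used in the other libraries, and OreR was a stock given by another laboratory. Each strain was therefore 1 stock, so that a difference between strains cannot be told apart from a difference between stocks or cultures. The flies for a triplicate were collected together, and p-values measure only the spread between these pools.

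Laboratory strains of Drosophila descend from different founders and carry different alleles at many loci, including deletions, insertions of transposable elements and regulatory changes that can silence a gene. The allele w1118 is a partial deletion of white, an X-linked gene that encodes a subunit of the ABC transporters that carry pigment precursors into the cells of the eye, and flies with this allele alone have white eyes. The head holds the compound eyes, the brain, the antennae and mouthparts with their sensory neurons, and the head fat body, which secretes immune and metabolic proteins. Cytochrome P450s, other detoxification enzymes, chemosensory proteins and immune genes belong to families in which fly strains often differ in expression.

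Reads on genes ranged from 7799153 to 9253272 in OreR XX, from 10301792 to 16011623 in OreR XY, from 12060983 to 13226309 in w1118 XX and from 10322848 to 13819380 in w1118 XY. Spearman's rho between replicates, across genes, was 0.975 to 0.997. The first principal component (36.6% of the variance) placed the w1118 libraries between −37.44 and −11.21 and the OreR libraries between 7.29 and 35.13, and the second (26.8%) separated the sexes. OreR XX replicate 1 and OreR XY replicate 2 stood apart in their spike-in RNA, which took 3.26% and 2.30% of reads against 0.390% to 0.980% in the other 10 libraries, and in Hsp70, as given below. Of the markers of cell types, none of those for neurons, photoreceptors and head muscle passed the test between strains. The markers of testis, ovary and male accessory gland summed to at most 9.55, 0.905 and 0.697 counts per 1000000 reads (CPM) in any library, and Cp16, an eggshell gene of the ovary, had 0 reads. The highest sums for testis and accessory gland were both in OreR XY replicate 2. The other OreR XY libraries had 0.902 and 0.905 CPM for testis and 0.113 and 0.129 CPM for accessory gland. In w1118 XY the testis sum ran from 0.694 to 4.54 CPM.

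The white gene was examined first as a check of the labels. In OreR, white had 16.9, 16.6 and 18.5 CPM in XX and 15.6, 22.3 and 18.5 CPM in XY. In w1118 it had 0.0703, 0.222 and 0.530 CPM in XX and 0.0868, 0.0649 and 0 CPM in XY, which rested on 0 to 6 reads per library. The groups did not overlap, as the labels require, and the log2 fold change of OreR over w1118 was 6.78 (SE 0.30, adjusted p = 5.28e-09). CPM here are read counts scaled by the library size after TMM normalization, and adjusted p values come from the quasi-likelihood test of edgeR with Benjamini-Hochberg adjustment over all genes tested.

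With sex as a covariate, 2036 of 9865 genes tested (20.6%) differed between the strains at an adjusted p under 0.05. Expression was higher in OreR for 1132 genes (11.5%) and lower for 904 (9.16%). In bulk heads, fewer cells of a type and less RNA per cell cannot be told apart. Most differences were small, with a median absolute log2 fold change of 0.58 among the higher and 0.65 among the lower genes. An absolute log2 fold change of at least 1 was found for 291 higher and 275 lower genes, at least 2 for 91 and 96, and at least 4 for 28 and 23. The 6 OreR libraries lay wholly above the 6 w1118 libraries for 443 genes tested (4.49%) and wholly below for 412 (4.18%), together 8.67% of genes. Scaling by the spike-in RNAs moved the median log2 fold change of all genes from 0.02 to −0.66 and left 62 higher and 338 lower genes, so that directions below are relative to the bulk of genes. Leaving out OreR XX replicate 1 and OreR XY replicate 2 together gave 966 higher and 1135 lower genes, and 1578 of the genes called with all libraries kept their call and direction.

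**Figure D1:**
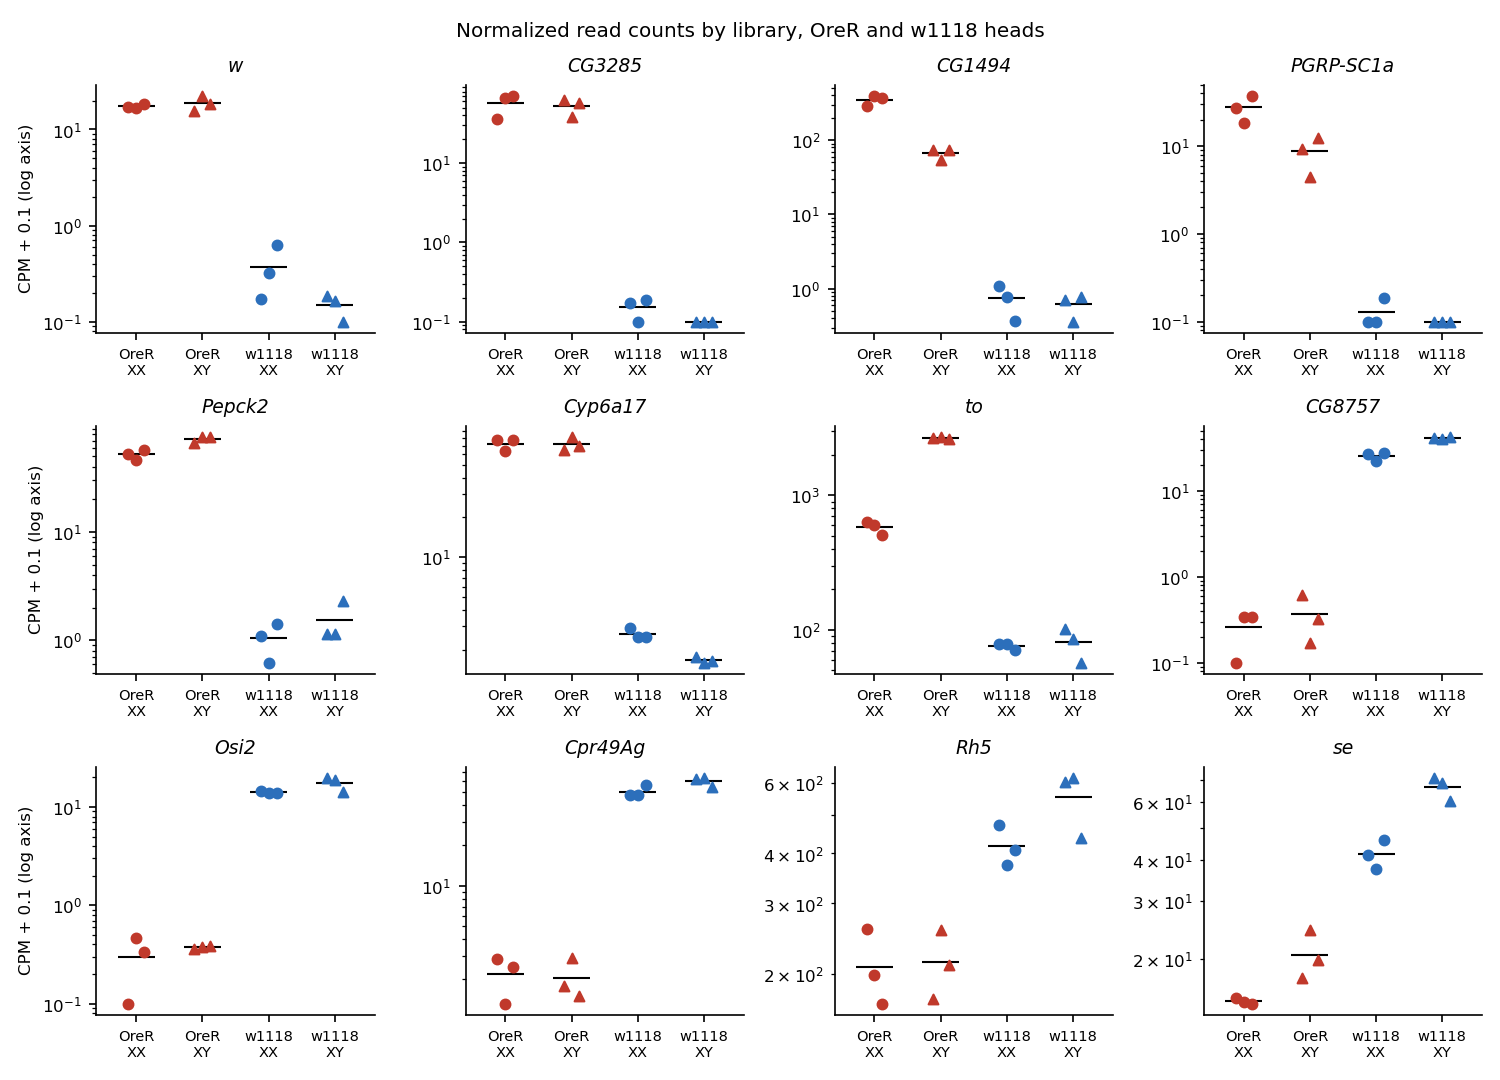
Normalized read counts (CPM + 0.1, log axis) of 12 genes in each library, with OreR in red, w1118 in blue, circles for XX, triangles for XY and a line at the mean of each group of 3. In every panel the 6 OreR libraries lie on one side of the 6 w1118 libraries, and takeout (to) is the panel in which the OreR males also lie far above the OreR females.

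The clearest differences were genes with many reads in OreR and almost none in w1118. CG15408 and CG3285, neighbouring genes on 2L whose exons overlap, were the pair with the largest fold changes. CG15408 had 22.7, 45.7 and 45.5 CPM in OreR XX and 30.3, 21.9 and 35.6 CPM in OreR XY, and 0 reads in all 6 w1118 libraries. Set against 3 reads per w1118 library, it was at least 143-fold higher in OreR (adjusted p = 2.94e-06). CG3285 had 35.8, 66.6 and 70.6 CPM in OreR XX and 63.3, 38.5 and 57.5 CPM in OreR XY. In w1118, CG3285 had 2 reads in all, against 3450 reads in OreR, a ratio of 2117 after scaling (95% exact interval 585.5 to 17484, adjusted p = 7.56e-10). Because the library kit does not mark strand, reads on the shared exons of these neighbours cannot be assigned, and intervals from few reads cover counting error only.

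PGRP-SC1a and PGRP-SC1b on 2R, near-identical genes for secreted amidases that degrade bacterial peptidoglycan and so dampen immune signalling, formed a second such pair. PGRP-SC1a had 27.1, 18.4 and 37.3 CPM in OreR XX, 9.28, 4.39 and 12.4 CPM in OreR XY, and 1 read in the w1118 libraries together. PGRP-SC1b had 25.6, 20 and 32.2 CPM in OreR XX, 7.48, 4.18 and 12.7 CPM in OreR XY, and 2 reads in w1118. Every OreR library lay above every w1118 library, and within OreR the males lay below the females. The ratios of OreR to w1118 were 1237 (95% exact interval 221.5 to 48899) for PGRP-SC1a and 585.9 (161.7 to 4845) for PGRP-SC1b, with adjusted p = 6.52e-08 and 9.02e-08. Reads of the copies could be exchanged between them, so that the pair is better read together.

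A run of neighbours on 2L, CG31775, CG42586, CG34166 and CG4650, was higher in OreR throughout. CG42586 had 86.3, 61.5 and 79.3 CPM in OreR XX, 7.99, 11.2 and 12.2 CPM in OreR XY, and 9 reads in the 6 w1118 libraries. CG31775 had 108, 65.0 and 83.6 CPM in OreR XX, 9.28, 9.55 and 10.2 CPM in OreR XY, and at most 0.351 CPM in w1118. CG4650 had 9.97 to 29.7 CPM in OreR and 0 to 0.441 CPM in w1118. These genes separated the strains in both sexes, and their log2 differences in that order were 8.40 (SE 0.25), 8.71 (SE 0.31) and 7.14 (SE 0.34). CG34166 differed less, with 231 to 841 CPM in OreR, 53.1 to 350 CPM in w1118 and overlapping groups (log2 fold change 1.22, SE 0.23, adjusted p = 0.0024).

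CG1494 and FBgn0010549, which like white encode ABC transporters, had few reads in w1118. CG1494, an X-linked gene whose exons overlap those of its neighbour Abca3, had 291, 395 and 364 CPM in OreR XX and 73.5, 53.5 and 73.0 CPM in OreR XY, against 0.260 to 0.984 CPM in w1118. Its log2 fold change was 8.29 (SE 0.34, adjusted p = 2.06e-09). FBgn0010549, a second gene of this family on 2R, given by its FlyBase identifier, had 109, 160 and 163 CPM in OreR XX and 118, 78.1 and 112 CPM in OreR XY, against 0.260 to 1.36 CPM in w1118 (log2 fold change 7.66, SE 0.29, adjusted p = 8.77e-10). For both, the lowest OreR library was far above the highest w1118 library. Pepck2, which encodes a phosphoenolpyruvate carboxykinase, an enzyme of gluconeogenesis, had 53.0, 46.2 and 57.5 CPM in OreR XX and 66.8, 75.8 and 75.3 CPM in OreR XY, and 0.519 to 2.21 CPM in w1118. Its log2 fold change was 5.73 (SE 0.18, adjusted p = 3.22e-10), and the groups were again far apart in both sexes.

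In the opposite direction, CG8757 on 3L showed the largest difference among genes with at least 5 CPM in w1118. It had 26.7, 22.3 and 27.3 CPM in w1118 XX, 40.4, 39.6 and 42.2 CPM in w1118 XY, and 0 to 0.516 CPM in OreR. Osi2, a member of the Osiris family of insect genes, had 14.3, 13.8 and 13.9 CPM in w1118 XX, 19.7, 18.5 and 13.9 CPM in w1118 XY, and 0 to 0.366 CPM in OreR. No OreR library reached the w1118 range for either gene. On the log2 scale CG8757 differed by −7.33 (SE 0.22, adjusted p = 2.11e-10) and Osi2 by −5.94 (SE 0.20, adjusted p = 5.61e-10).

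CG31205 had 51.1 to 95.2 CPM in w1118 and 2.19 to 3.03 CPM in OreR (log2 fold change −4.92, SE 0.19). CG13071 had 10.5 to 20.4 CPM in w1118 and 0.118 to 0.566 CPM in OreR (−5.16, SE 0.17). Srg3, a gene named for its regulation by the innate immune adaptor Sting, varied most within w1118, from 9.18 to 64.2 CPM, but stayed between 0.258 and 1.25 CPM in OreR (−5.31, SE 0.54, adjusted p = 1.49e-05). The other genes chosen by size were lcs, CG17005, CG18473 and the noncoding genes lncRNA:CR44645 and asRNA:CR45600, with log2 fold changes from −4.29 to −3.75. The pseudogene CR43086, chosen for its few reads in OreR (5 over the 6 libraries), was lower by −5.16 (SE 0.32) on the log2 scale. The noncoding gene asRNA:CR45600 overlaps CG3984, CG3987 and CG6912, and the counts were not stated to use strand, so that its reads may belong to those genes.

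Cuticle protein genes next to each other on 2R, Cpr49Af, Cpr49Ag and Cpr49Ah with CG30050 between them, were lower in OreR together. Cpr49Ag had 47.2, 47.0 and 56.2 CPM in w1118 XX and 62.5, 63.8 and 54.8 CPM in w1118 XY, against 1.22 to 2.79 CPM in OreR. Its log2 fold change was −4.78 (SE 0.17, adjusted p = 7.56e-10). Cpr49Af had 2.95 to 4.59 CPM in w1118 and 0 to 0.355 CPM in OreR, with 8 reads in all 6 OreR libraries (−4.82, SE 0.36). The 4 genes of the run ranged from −4.82 to −3.30.

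The gene takeout (to), which encodes a secreted protein of the head fat body and sensory organs with roles in feeding, circadian output and male courtship, was the gene for which the strain difference itself differed between the sexes. It had 632, 600 and 505 CPM in OreR XX and 2659, 2732 and 2625 CPM in OreR XY. In w1118 it had 78.8, 78.8 and 71.1 CPM in XX and 101, 85.9 and 56.8 CPM in XY. The OreR males were highest, the OreR females lay between, and the w1118 libraries of the 2 sexes overlapped. The log2 fold change of OreR over w1118 was 2.92 in XX and 5.04 in XY, a difference between the sexes of −2.12 (XX less XY, SE 0.26, adjusted p = 0.0317). This was the only 1 of 9865 genes past the threshold in the test of the interaction with edgeR (0.0101%), with 398 genes of positive and 368 of negative interaction at an unadjusted p under 0.05, and 56 genes past the threshold with DESeq2. The log2 value for takeout stayed between −2.30 and −1.91 with each library left out in turn, but in 9 of those 12 fits the adjusted p was not under 0.05.

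Cytochrome P450s, enzymes that oxidize hormones, fatty acids and foreign compounds, differed between the strains more often than not in the direction of OreR. Of 69 P450 genes tested, 26 were higher and 8 were lower in OreR (49.3% called, against 20.6% of all genes), with a median log2 fold change of 0.27 against 0.02 for all genes. The 6 OreR libraries lay wholly above w1118 for 18 of them and wholly below for 3, against 4.49% and 4.18% of all genes. Scaling by spike-in RNAs left 6 higher and 6 lower, while the median stayed 0.20 above that of all genes.

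Cyp6a17, a gene linked to temperature preference behaviour, had 76.5, 63.9 and 76.8 CPM in OreR XX and 64.8, 81.5 and 70.0 CPM in OreR XY. In w1118 it had 2.81, 2.37 and 2.38 CPM in XX and 1.65, 1.49 and 1.53 CPM in XY. The lowest OreR library was far above the highest w1118 library, and the log2 fold change was 5.15 (SE 0.14, adjusted p = 1.77e-10). Its close paralog and neighbour Cyp6a23 went the other way, with 12.2 to 37.7 CPM in OreR, 23.9 to 52.0 CPM in w1118 and overlapping groups (−0.88, SE 0.24, adjusted p = 0.0189). Reads from such similar paralogs are partly lost or exchanged under unique mapping, and the size of both values is uncertain to that extent.

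Cyp309a2 had 11.8, 14.1 and 19.2 CPM in OreR XX and 19.7, 16.5 and 21.1 CPM in OreR XY, against 0.0850 to 0.562 CPM in w1118 (log2 fold change 5.69, SE 0.26, adjusted p = 8.25e-09). Its neighbours on 2L, Cyp309a1, insv and Elba2, were also higher in OreR, with log2 fold changes from 1.29 to 1.47, and so made a run of 4 genes. Insv and Elba2 belong to the ELBA group of insulator proteins. Cyp4d1 on the X had 25.0, 23.2 and 28.9 CPM in OreR XX and 4.64, 7.32 and 8.37 CPM in OreR XY, against 0.130 to 0.703 CPM in w1118 (5.30, SE 0.20, adjusted p = 8.77e-10). For this gene both sexes separated the strains, and the OreR females lay above the OreR males.

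Cyp12d1-p and Cyp12d1-d, near-identical copies known for induction by insecticides and caffeine, were higher by 2.76 (SE 0.20) and 2.05 (SE 0.21) on the log2 scale, and reads may be shared between them. Cyp12a5, a P450 of the mitochondrial clade, had 22.4 to 34.8 CPM in OreR and 9.20 to 11.8 CPM in w1118 (1.52, SE 0.11, adjusted p = 6.76e-07). With spike-in scaling its adjusted p was 0.313. The P450s with the largest decreases in OreR were Cyp305a1 (−1.68, SE 0.23), Cyp301a1 (−1.63, SE 0.26) and Cyp28d2 (−1.44, SE 0.18). Cyp305a1 had 5.85 to 22.1 CPM in OreR and 35.7 to 57.7 CPM in w1118, without overlap.

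**Figure D2:**
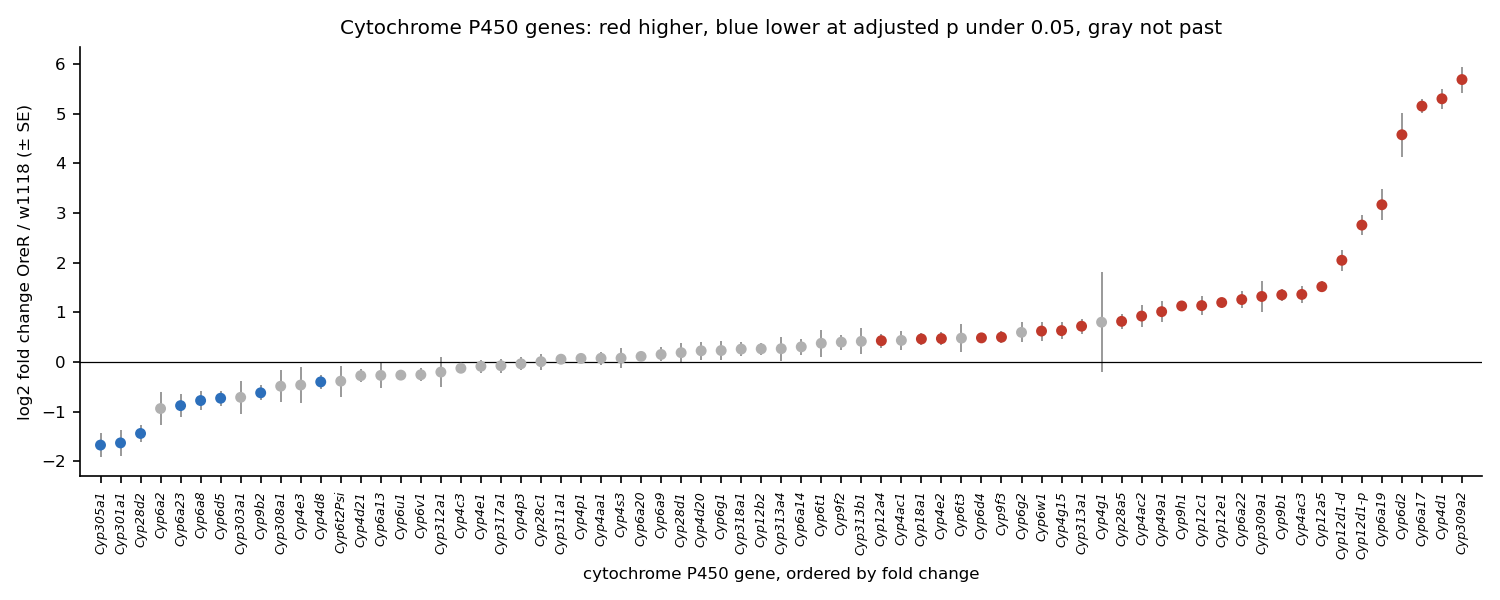
Log2 fold change of OreR over w1118 (points, with bars of 1 SE) for the 69 cytochrome P450 genes tested, ordered by fold change, from the fit with sex as a covariate. Red points (26) were higher and blue points (8) lower at an adjusted p under 0.05, and gray points did not pass. A small group at the right, from Cyp12d1-d to Cyp309a2, rises from 2.05 to 5.69, while the largest decrease, in Cyp305a1, is −1.68.

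Other detoxification enzymes did not share this direction. Of 19 UDP-glycosyltransferases tested, which conjugate small molecules to sugars, 3 were higher and 8 were lower in OreR. The share called was 57.9%, against 20.6% of all genes, with a median log2 fold change of −0.28. Ugt35C1 had 2.60, 7.19 and 8.05 CPM in OreR XX and 6.57, 3.97 and 8.09 CPM in OreR XY, against 48.4, 52.3 and 41.6 CPM in w1118 XX and 55.9, 45.1 and 24.1 CPM in w1118 XY. The groups did not overlap (log2 fold change −2.85, SE 0.26, adjusted p = 6.76e-06). Ugt49B1 was higher, with 54.1 to 93.2 CPM in OreR and 20.8 to 43.6 CPM in w1118 (1.13, SE 0.10, adjusted p = 3.95e-06), though its exons overlap those of CG44245 and its adjusted p was 0.421 with spike-in scaling.

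Of 30 glutathione S-transferases tested, which conjugate glutathione to electrophiles, 2 were higher and 8 lower in OreR. The share called was 33.3%, against 20.6% of all genes, with a median of −0.05. A run of 6 neighbours on 3R, CG4115, GstD10, GstD9, GstD1, GstD2 and GstD3, was lower in OreR, with log2 fold changes from −1.29 to −0.51. GstD10 had 2.96 to 3.83 CPM in OreR and 4.42 to 7.41 CPM in w1118 (−0.80, SE 0.14, adjusted p = 0.000891). GstD1, a DDT-metabolizing enzyme, had 174 to 263 CPM in OreR and 236 to 342 CPM in w1118, with overlapping groups (−0.56, SE 0.14, adjusted p = 0.0101). GstD9 and GstD3 did not pass under 9 and 13 of 20 alternatives.

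Genes for the recognition of bacterial and fungal cell walls differed in both directions. Of 14 peptidoglycan and glucan recognition genes tested, 5 were higher in OreR, PGRP-SC1a and PGRP-SC1b among them, and 2 were lower. The share called was 50%, against 20.6% of all genes, with a median of 0.13. GNBP1, which acts upstream of the Toll pathway in the recognition of Gram-positive bacteria, had 26.7, 28.9 and 29.4 CPM in OreR XX and 24.0, 24.7 and 27.0 CPM in OreR XY. In w1118 it had 13.6, 15.9 and 13.2 CPM in XX and 11.4, 9.99 and 8.76 CPM in XY. The groups did not overlap, and the log2 fold change was 1.16 (SE 0.09, adjusted p = 2.25e-06, but 0.397 with spike-in scaling).

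GNBP3, which recognizes fungal glucan, was higher by 0.94 (SE 0.17, adjusted p = 0.00185). PGRP-LB, an amidase that dampens the Imd pathway, was lower, with 7.35 to 10.2 CPM in OreR and 12.5 to 18.4 CPM in w1118 (−0.85, SE 0.11, adjusted p = 9.74e-05). PGRP-SD had 12.6 to 24.6 CPM in OreR and 30.3 to 82.2 CPM in w1118 (−1.57, SE 0.23, adjusted p = 0.000274), and its exons overlap those of CG7492. For both genes the strains did not overlap, in the direction opposite to the PGRP-SC1 pair.

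Of 13 antimicrobial peptide genes tested, 1 was higher and 3 were lower (30.8% called, against 20.6% of all genes, median −0.45). Def, the gene for Defensin, had 0.129 to 1.16 CPM in OreR and 4.41 to 12.8 CPM in w1118 (−3.41, SE 0.36, adjusted p = 1.97e-05). AttB, an attacin against Gram-negative bacteria, had 0.592 to 5.58 CPM in OreR and 7.63 to 130 CPM in w1118 (−3.33, SE 0.78, adjusted p = 0.00828). The groups did not overlap for either, but w1118 XX replicate 3 gave the 130 CPM, and without it AttB differed by −2.50 (adjusted p = 0.000934).

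The same library was high for the diptericin gene DptA, which had 9.35, 1.41 and 254 CPM in w1118 XX, 0.389 to 1.13 CPM in w1118 XY and 0 to 4.53 CPM in OreR. With sex as a covariate DptA and DptB differed by −3.39 (SE 1.68) and −2.13 (SE 1.12) on the log2 scale and did not pass (adjusted p = 0.182 and 0.211). Within XX they were lower in OreR, by −6.13 and −4.01 (adjusted p = 0.0412 and 0.0437), and in XY the values were 1.47 and 1.23 (adjusted p = 0.764 and 0.698). Without w1118 XX replicate 3 their XX values were −2.09 and −2.15 and did not pass (adjusted p = 0.385 and 0.235). AttC, whose exons overlap those of CG4744, was lower in XX with and without this library (−4.06, adjusted p = 0.00202, and −2.96, adjusted p = 0.00236), and had 0.57 in XY (adjusted p = 0.714). None of DptA, DptB and AttC passed the test of the difference between the sexes (adjusted p = 0.603, 0.593 and 0.244).

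Among 4 Turandot stress genes tested, TotA alone was called (25%, against 20.6% of all genes). It had 11.3 to 50.1 CPM in OreR and 48.8 to 263 CPM in w1118 (−2.36, SE 0.36, adjusted p = 0.000425), and the ranges overlapped. These genes are made largely by the fat body, whose marker Lsp2 was also lower in OreR (9.06 to 391 CPM against 22.4 to 4963 CPM, log2 fold change −3.08, SE 0.86, adjusted p = 0.0218), while takeout was higher and Yp1 did not pass. The part of fat body content in these differences was not tested.

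The eye of w1118 lacks pigment, and genes of pigment synthesis and of the photoreceptors were examined. Of 19 eye pigment genes tested, 4 were higher and 2 lower in OreR (31.6% called, against 20.6% of all genes, median −0.02). The 4 higher genes included white, whose difference follows from the genotypes compared. The partners of white in its transporters, bw and st, differed by 0.01 (SE 0.10) and −0.02 (SE 0.13) on the log2 scale and did not pass (adjusted p = 0.946 and 0.936). The gene se (sepia), for an enzyme of the synthesis of red drosopterin pigments, was lower in OreR. It had 15.2, 14.8 and 14.6 CPM in OreR XX and 17.4, 24.5 and 19.8 CPM in OreR XY, against 41.3, 37.4 and 45.8 CPM in w1118 XX and 70.9, 68.6 and 60.1 CPM in w1118 XY. The ranges were far apart within each sex (log2 fold change −1.59, SE 0.09, adjusted p = 1.27e-07), and its exons overlap those of GstO2. The genes cd (1.29, SE 0.24, adjusted p = 0.0017) and Hn (0.83, SE 0.19, adjusted p = 0.0065), which act in pigment synthesis, were higher, with adjusted p of 0.427 and 0.847 under spike-in scaling.

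Of 22 phototransduction genes tested, 2 were higher and 3 lower (22.7% called, median 0.06), a share near the 20.6% of all genes. The genes called were ninaB and the opsins of the inner photoreceptors R7 and R8. Rh3 and Rh5 are the opsins of the pale type of ommatidium, and Rh4 and Rh6 those of the yellow type. Rh5, the blue opsin, had 259, 199 and 168 CPM in OreR XX and 173, 258 and 211 CPM in OreR XY. In w1118 it had 472, 374 and 408 CPM in XX and 603, 618 and 437 CPM in XY. The groups did not overlap (log2 fold change −1.19, SE 0.15, adjusted p = 8.44e-05). The deficiency lines on a w1118 background, described below, did not follow w1118 in XY. With CPM scaled over all libraries, their Rh5 means in XY were 213 to 314, against 203 in OreR and 531 in w1118. In XX they were 207 to 744 (median 285.5), against 198 in OreR and 400 in w1118. Rh3, a UV opsin, had 710.5 to 1006 CPM in OreR and 1187 to 1814 CPM in w1118 (−0.79, SE 0.14, adjusted p = 0.001).

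Rh4, the other UV opsin, was higher in OreR, with 1147 to 2103 CPM against 658 to 1548 CPM (0.57, SE 0.15, adjusted p = 0.0132). Rh6, the green opsin, was higher by 0.31 (SE 0.10, adjusted p = 0.0439). The ranges of Rh4 and Rh6 overlapped between strains. Neither passed with spike-in scaling, where Rh4 was −0.18 and the median of all genes was −0.66. Nor did either pass without OreR XX replicate 1 and OreR XY replicate 2 (adjusted p = 0.0835 for Rh4 and 0.223 for Rh6). The main opsin, ninaE, differed by 0.19 on the log2 scale (SE 0.16, adjusted p = 0.462) and did not pass.

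**Figure D3:**
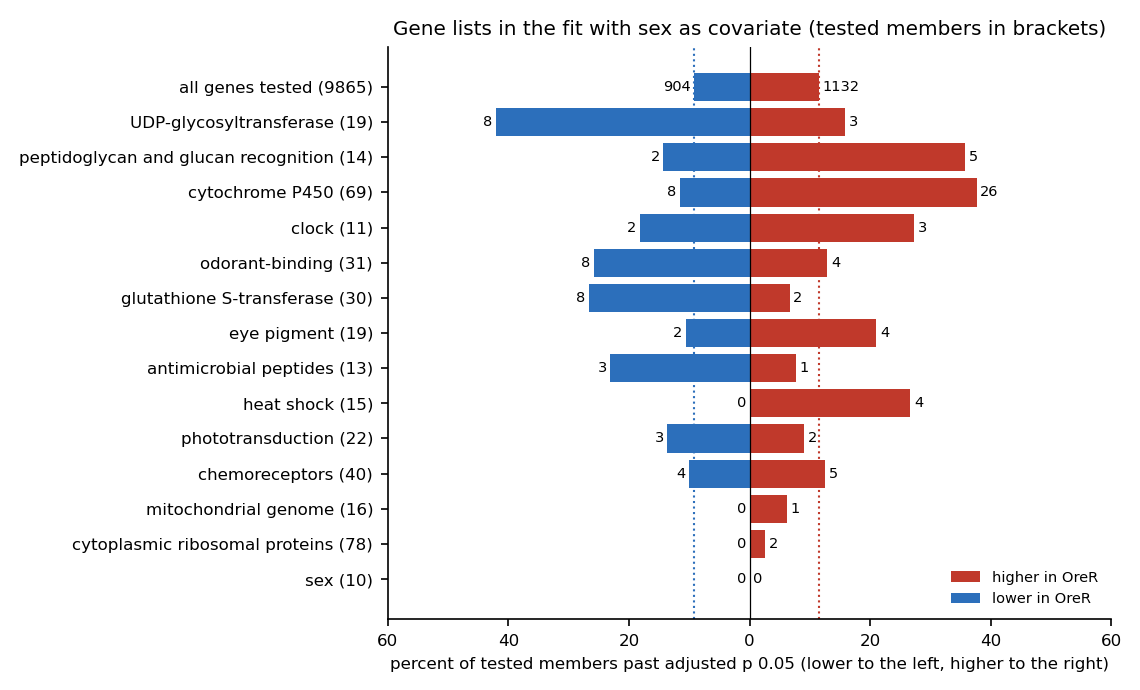
Share of the tested members of each gene list (number tested in brackets) that were higher (red, to the right) or lower (blue, to the left) in OreR at an adjusted p under 0.05, with the number called at each bar and dotted lines at the shares of all genes (11.5% higher, 9.16% lower). Cytochrome P450s lean to the right with 26 of 69, and UDP-glycosyltransferases to the left with 8 of 19. Cytoplasmic ribosomal proteins and the sex genes lie near 0.

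Odorant-binding proteins, which carry odorants and other ligands in the fluid of sensory hairs, included 4 higher and 8 lower genes among 31 tested. The share called was 38.7%, against 20.6% of all genes, with a median of −0.20. The lower genes included 5 of the Obp56 cluster on 2R, Obp56a, Obp56c, Obp56e, Obp56f and Obp56g, with log2 fold changes from −3.89 to −0.46. Of these, Obp56c and Obp56f had group means of at most 1.10 and 1.73 CPM. In the same cluster Obp56h was higher by 1.09 (SE 0.11, adjusted p = 1.72e-05), and Obp56d did not pass (0.04, SE 0.16, adjusted p = 0.89). Obp56a had 10.97, 18.8 and 7.94 CPM in w1118 XX and 6.51, 7.07 and 2.89 CPM in w1118 XY, and 0.289 to 0.773 CPM in OreR. The OreR libraries were low throughout (−3.89, SE 0.36, adjusted p = 7.17e-06). Obp56h had 58.8 to 81.4 CPM in OreR and 27.4 to 39.5 CPM in w1118, without overlap. Grouping these genes as a cluster was done after their values were seen.

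Among 40 chemoreceptor genes tested, 5 were higher and 4 lower (22.5% called, near the 20.6% of all genes, median 0.19). Ir76a, an ionotropic receptor of the antenna, had 2.17, 2.56 and 2.84 CPM in OreR XX and 2.84, 3.97 and 2.77 CPM in OreR XY, against 13.5, 14 and 14.7 CPM in w1118 XX and 12.9, 13.8 and 19.1 CPM in w1118 XY. The strains were far apart (log2 fold change −2.34, SE 0.14, adjusted p = 9.02e-08), and its exons overlap those of CG14102. Ir68a, a receptor of moist air, was lower by a similar margin (−2.23, SE 0.21). Ir21a, a receptor of cooling, and Gr64a, a sugar receptor, were higher by 2.87 (SE 0.54) and 2.73 (SE 0.40), at no more than 2.37 CPM in any library.

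Heat shock genes showed a difference that rested on few libraries. Of 15 tested, the 4 genes of the Hsp70B cluster were higher in OreR (26.7% called, against 20.6% of all genes). The median log2 fold change of the list was 2.24. Hsp70Bc had 579, 15.4 and 13.02 CPM in OreR XX, 62.9, 656 and 57.3 CPM in OreR XY, 33.9, 38.4 and 44.5 CPM in w1118 XX and 10.8, 7.78 and 19.5 CPM in w1118 XY. OreR XX replicate 1 and OreR XY replicate 2, the libraries with the most spike-in RNA, were alone in exceeding 500 CPM, and the ranges overlapped (3.34, SE 0.99, adjusted p = 0.0295). The Hsp70 copies are near-identical and share reads. Without these libraries, 0 of the 15 genes were higher and 1 was lower, the median was 0.11, and the adjusted p of Hsp70Bc was 0.528.

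Ribosomal protein genes were seldom called. Of 78 cytoplasmic ribosomal protein genes tested, 2 were higher and 0 lower (2.56% called, against 20.6% of all genes, median 0.12). Both of these, RpL4 and RpL22, failed most alternatives (13 and 15 of 20). In XX the log2 values of the list were all positive, from 0.13 (RpS27) to 0.89 (RpLP0), with 3 called, against 11.8% of all genes. In XY they ran from −0.73 (RpL38) to 0.31 (RpL4), with 0 called, against 11.9% of all genes. None of them passed the test of the difference between the sexes. Of 4 metallothioneins 0 were called. Of 16 mitochondrial genes 1 was higher and 0 were lower with sex as a covariate (6.25% called). In XY 3 of the 16 were lower, against 5.52% of all genes. In XY mt:ND3, for a subunit of respiratory complex I, had 21.8 to 79.3 CPM in OreR and 144.8 to 244.8 CPM in w1118 (−1.98, adjusted p = 0.00623). Its XX value was −0.03 (adjusted p = 0.974), and the difference between the sexes did not pass (adjusted p = 0.431). Over the 16 mitochondrial genes the median log2 value was 0.51 in XX, where 0 were called, and −0.305 in XY.

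Of 10 genes of sex determination and its targets, 0 were called with sex as a covariate, but the yolk protein gene Yp3 was higher in OreR females. It had 35923, 50589 and 56854 CPM in OreR XX and 15951, 22655 and 14760 CPM in w1118 XX, without overlap (1.43 in XX, adjusted p = 0.00696). Yp2 and Yp1 had XX values of 1.33 and 1.04 and did not pass (adjusted p = 0.0537 and 0.076). In XY the level of Yp3 was low in both strains, at 35.6 to 64.3 CPM, and its log2 value was 0.10 (adjusted p = 0.874). The test of the difference between the sexes was not passed by Yp3 (adjusted p = 0.473).

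In the circadian clock list of 11 genes, 3 were higher and 2 lower (45.5% called, against 20.6% of all genes, median −0.11): apart from takeout, Pdfr was higher by 0.48 and vri by 0.46, and Clk (−0.52) and cyc (−0.40) were lower, while per (0.15) and tim (0.03) did not pass. With spike-in scaling takeout was the only gene of this list called, and Pdfr, Clk and cyc had adjusted p of 0.799, 0.185 and 0.226. The time of day of collection is not given in the sources used here.

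The midgut markers alphaTry, betaTry, Jon65Aiii and Jon65Aiv had 10 to 11 reads each over the 12 libraries, whereas the amylase gene Amy-p had 11.9 to 19.3 CPM in OreR and 1.10 to 8.68 CPM in w1118 (1.62, SE 0.31, adjusted p = 0.00201). It was 1 of 3 digestive enzymes called of 8 tested, all higher in OreR (37.5%, against 11.5% higher among all genes), the others being Amy-d and Mal-A5. None of the 3 was called with spike-in scaling, where Amy-p had an adjusted p of 0.242, and Amy-d did not pass in 9 of 20 alternatives. The indirect flight muscle actin gene Act88F was lower in OreR, at 0.854 to 3.83 CPM against 6.19 to 19.5 CPM (−2.73, SE 0.22, adjusted p = 2.44e-06). The other flight muscle markers, fln and TpnC4, had mean levels of 0.107 to 0.807 CPM in the 4 groups. The astrocyte gene alrm was higher by 1.18 (SE 0.32, adjusted p = 0.0203), with overlapping ranges, while the glial markers repo and Gs2 did not pass. The part of trunk tissue or glial content in these differences was not tested.

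The strain difference was then taken in each sex. In the fit with a coefficient per group, 1160 genes (11.8%) differed in XX, 672 higher (6.81%) and 488 lower (4.95%) in OreR, and 1170 genes (11.9%) differed in XY, 625 higher (6.34%) and 545 lower (5.52%). To set the sexes side by side with no library in common, the 6 XX and the 6 XY libraries were also fitted apart. Among 9375 genes tested in both fits, 1523 were called in XX and 566 in XY (over all genes tested in each fit, the shares called were 16.3% and 6.14%). Both lists held 425 genes, which is 27.9% of the XX list and 75.1% of the XY list, and 424 of these had the same direction. Of the genes called in XX, 92.6% had the same sign in XY, and of those called in XY, 98.2% had the same sign in XX, against 66.7% of all genes. These shares are a description across genes, which are not independent replicates.

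**Figure D4:**
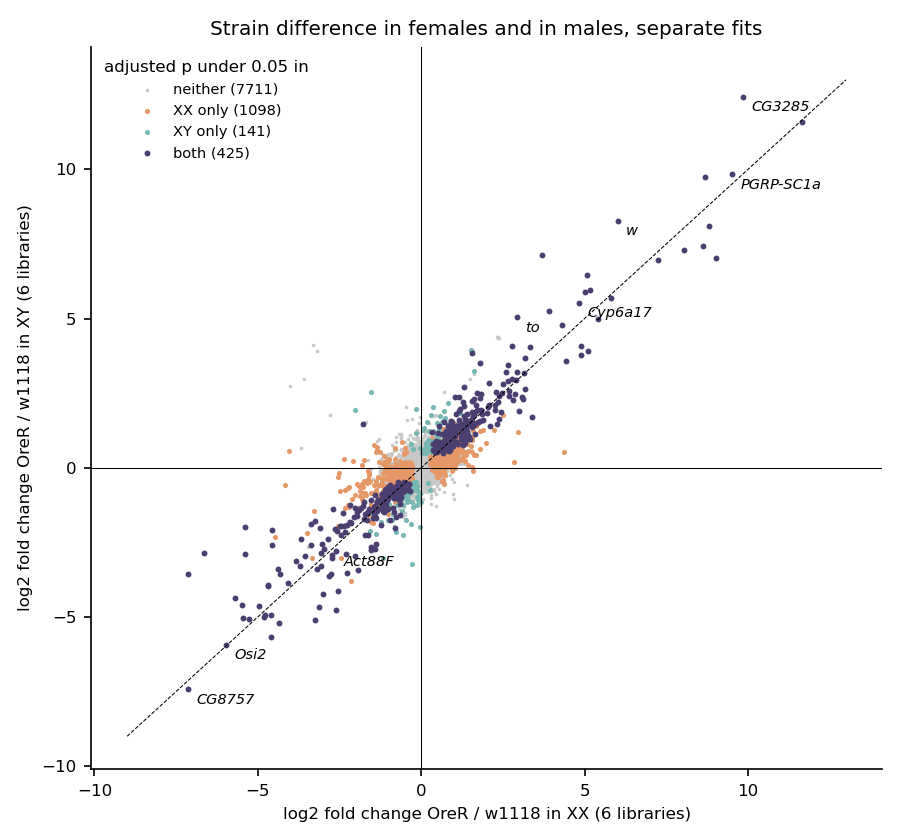
Log2 fold change of OreR over w1118 in the 6 XX libraries (horizontal axis) and in the 6 XY libraries (vertical axis), for 9375 genes tested in both separate fits, with genes coloured by the fits in which the adjusted p was under 0.05 and a dashed line at equal values. The 425 genes called in both (dark) lie along the dashed line from CG8757 to CG3285, and takeout (to) lies above it.

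Genes that differed between strains lay on every major arm. The share called was 24.1% on 2R (270 higher, 202 lower), 22.8% on 2L, 21.4% on 3L, 19.4% on 3R, 16.3% on the X (167 higher, 95 lower of 1606 tested) and 5.56% on chromosome 4 (5 of 90). Of the called genes placed on these arms, 8.33% lay in 49 runs of 3 or more neighbouring tested genes called in the same direction, 23 runs higher and 26 lower in OreR. Most runs (35) held 3 genes, and the longest held 6.

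In addition to the GstD run, the longest run was on 2R and held CG40498, rl, CR42653, CR40190, CG40191 and lncRNA:CR44042, with log2 fold changes from −2.35 to −0.99. The gene rl (rolled) encodes the MAP kinase ERK and lies in pericentric heterochromatin. It had 110, 136 and 142 CPM in OreR XX and 138, 112 and 126 CPM in OreR XY, against 300, 271 and 308 CPM in w1118 XX and 234, 235 and 371 CPM in w1118 XY. The groups did not overlap (−1.17, SE 0.12, adjusted p = 2.02e-05). CG40191 had 71.6 to 82.4 CPM in OreR and 142 to 167 CPM in w1118, so that the spread within strains was small beside the difference (−0.99, SE 0.07, adjusted p = 3.45e-07). The next run by length held VhaAC45RP, Rsod, Mlc2, CG1983 and CG15530 on 3R, with log2 fold changes from −3.15 to −0.37.

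Libraries from w1118/w+ XX females, the progeny of w1118 mothers and w+/Y fathers, allowed a look at flies with 1 chromosome set from each parent. There were 2 such libraries, and the labels do not name the strain of the w+ fathers. Genes were chosen from the XY libraries alone, as called with an absolute log2 fold change of at least 1, which gave 377 genes, of which 371 had the same direction in XX. On a scale where the w1118 XX mean is 0 and the OreR XX mean is 1, the heterozygotes had a median position of 0.62 (interquartile range 0.37 to 0.86). They lay between the strains for 296 genes, beyond OreR for 60 and beyond w1118 for 15. The median was 0.53 for 199 genes higher in OreR and 0.70 for 172 genes lower in OreR, but on the log2 scale these were 0.69 and 0.59, so that the order of the 2 groups depends on the scale.

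Single genes took positions from the w1118 level to the OreR level. For this comparison CPM were scaled over all libraries of the table. The gene white had 11 and 10.4 CPM in the heterozygotes, between means of 16.5 in OreR XX and 0.262 in w1118 XX, and the ABC transporter gene FBgn0010549 had 63.7 and 61.4 CPM, between 137 and 0.523. By contrast, takeout had 71.7 and 84.2 CPM, close to the w1118 mean of 72.9 and far from 550.5 in OreR. PGRP-SC1a (0.751 and 1.06 CPM, against 26.2 and 0.0282) and Pepck2 (3.89 and 5.88 CPM, against 49.7 and 0.902) also lay near w1118. At the OreR end, CG13071 had 0.342 and 0.408 CPM (0.252 in OreR, 11.3 in w1118) and se had 16.1 and 15.0 CPM (14.1 and 39.7). These positions are a description, and no test of them was made.

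The Df/+ lines, whose flies carried a w1118 background with a deficiency on the X or 3L, were set beside OreR and w1118. Because these lines share the background of w1118, they cannot show which strain is the unusual one. The lines comprised 89 XX libraries of 30 lines and 33 XY libraries of 11 lines. For genes called in XX, the OreR mean lay outside the range of the 30 line means for 44.9% and the w1118 mean for 21.2%, against 16.0% and 16.8% of all genes tested. In XY the shares were 68.6% and 47.9% of the called genes, against 40.3% and 38.3% of all genes, outside the range of 11 line means. These shares have no test, since the called genes were chosen for a difference between the same means. The range of single libraries was wider, and gave 21.6% and 5.95% in XX.

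Several genes with few or no reads in w1118 were as low in the Df/+ lines. CG15408 had over 3 reads in 0 of 89 XX and 0 of 33 XY Df/+ libraries, and CG3285 in 1 of each. PGRP-SC1a and PGRP-SC1b had over 3 reads in 0 of these 122 libraries. The exceptions included Cyp309a2, whose line means in XX ranged from 0.135 to 17.8 CPM and reached the OreR mean of 14.3, and CG42586, with over 3 reads in 28 of the 89 XX libraries. For takeout the Df/+ line means were 41.6 to 104 CPM in XX and 53.1 to 98.0 CPM in XY, all below the OreR means of 550.5 and 2529. CG13071 differed from this pattern, since its Df/+ line means in XX (0.427 to 7.07 CPM) lay below the w1118 mean of 11.3. It was not alone among the named genes. For Hn the line means were 338.1 to 789.8 CPM in XX and 273.3 to 542.6 CPM in XY. They lay above the w1118 means of 225.2 and 156.2 CPM, and their ranges held the OreR means of 390.9 and 278.3 CPM. In XX the line means of cd were 3.688 to 9.501 CPM, against 2.536 CPM in w1118. Those of Mal-A5 were 104.2 to 167.3 CPM, against 68.63 CPM. These ranges held the OreR means too. The gene white cannot be used in this way, because DrosDel deficiency chromosomes carry a white marker, and its line means in XX were 20.7 to 737 CPM.

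**Figure D5:**
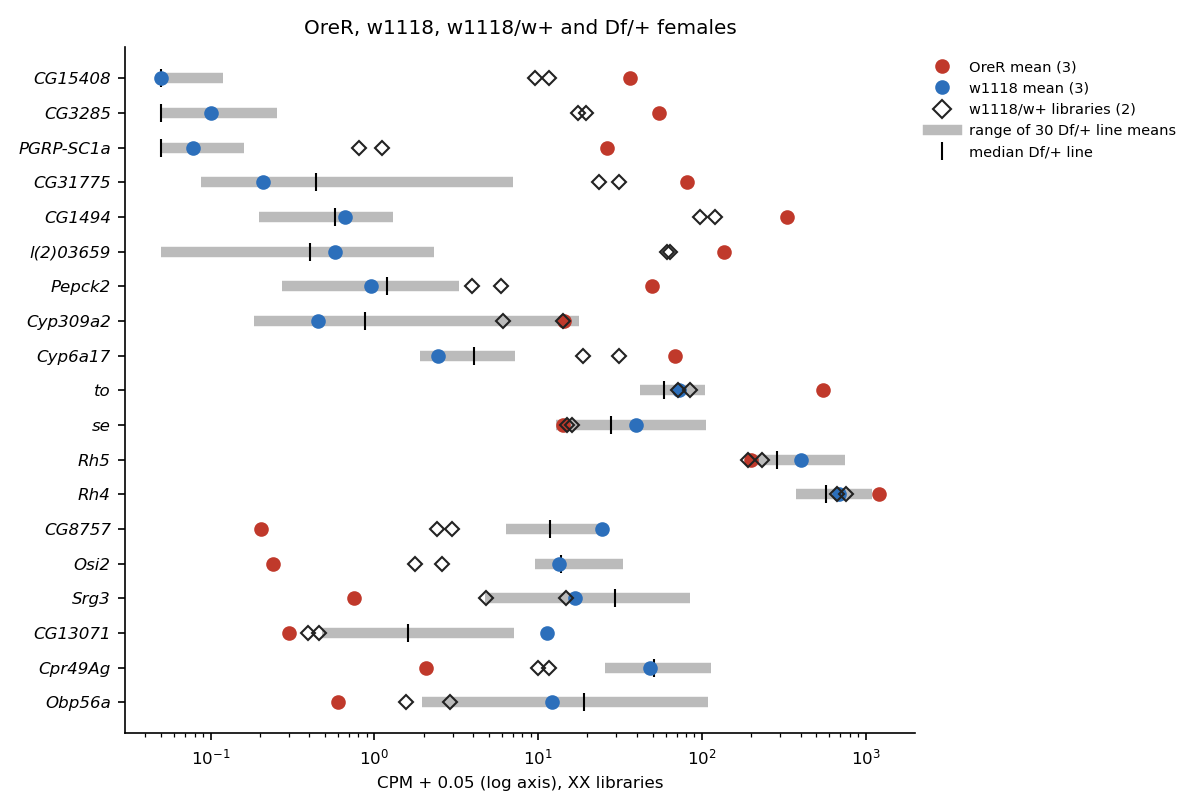
Level (CPM + 0.05, log axis) of 19 genes in XX females, with the OreR mean in red and the w1118 mean in blue (3 libraries each), the 2 w1118/w+ libraries as open diamonds, and the range of the 30 Df/+ line means as a gray bar with its median as a black line. For CG15408, CG3285, CG1494, FBgn0010549 (labelled by its l(2) symbol) and takeout the gray bar lies around the w1118 mean and far below OreR, and for CG8757, Osi2 and Cpr49Ag it lies far above OreR.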

How the data were processed

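The authors mapped single-end reads of poly-A+ RNA to release 5.57 of the FlyBase genome with TopHat2 2.0.10, kept unique mappings, and deposited read counts per gene and spike-in RNA from HTSeq 0.5.4p1, without normalization. HTSeq options are not given in the sources used here. The table held 17142 genes, 96 spike-ins and 5 lines naming no gene. In the 12 libraries 2.28% of reads were outside genes, 4.78% ambiguous and 1.01% on spike-ins, and these stayed out of library sizes and tests. Deposited FPKM and DESeq2-normalized tables were not used. Symbols, arms and gene order came from BDGP6, which held 16815 identifiers. Because that build differs from the authors', no coordinates are given.

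The deposited counts of the 12 libraries were tested with edgeR 4.0.16 (limma 3.58.1, R 4.3.3; TMM, filterByExpr by the 4 groups, quasi-likelihood, two-sided) for strain with sex as covariate, strain within each sex, and their difference, at a Benjamini-Hochberg adjusted p under 0.05. The common dispersion was 0.0338. Each SE was taken as the size of the log2 difference divided by the root of its F statistic. Tables and plots were made with Python 3.11.15 (numpy 2.4.6, pandas 2.3.3, matplotlib 3.10.9). Alternatives were RLE and spike-in scaling, no filter, a mean of over 6 scaled counts, a replicate block, no sex term, each sex alone, each library left out, both libraries with the most Hsp70 left out (added after seeing the data), and DESeq2 1.42.0. The genes and lists were chosen with earlier results of these data known. Named genes were white, up to 12 in each direction by fold change without overlap and with at least 5 CPM in the higher strain, up to 6 in each direction for which no library of a strain exceeded 3 reads and each of the other had 30 or more, up to 4 called per list, interaction genes and the longest 3 runs. Other called genes named in the text were chosen after their values were seen. The cyclophilins Cyp1 and Cyp40, which the symbol rule also took, were left out of the P450 list. Of the marker genes, chp, nos and Acp70A were not matched. No batch or date is labelled.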

Additional observations from a re-analysis of the deposited data

Results flagged for a closer look

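The test of the difference between the sexes singled out takeout (to). Its log2 fold change of OreR over w1118 was 2.92 in XX and 5.04 in XY, and the difference (XX less XY) was −2.12 (SE 0.26, adjusted p = 0.0317, edgeR's quasi-likelihood test). All 3 OreR XY libraries (2625 to 2732 CPM) lay above all 3 OreR XX libraries (505 to 632 CPM), whereas w1118 XY (56.8 to 101 CPM) and w1118 XX (71.1 to 78.8 CPM) overlapped. The adjusted p missed 0.05 in 10 of 19 alternatives, 9 of them fits that left out 1 library and the other spike-in scaling, at an adjusted p of 0.358. Over the fits that left out 1 library it ran from 0.00382 to 0.191.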

How the results depend on the processing

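With sex as a covariate, the number of genes called moved beyond 1.5 times under spike-in scaling alone, to 400 (284 in XX, 119 in XY and 28 for the interaction). It was 1692 to 2121 with 1 library left out, 2016 with RLE normalization, 1860 with no filter, 1395 with no term for sex and 2333 with DESeq2. RLE split the calls into 1047 higher and 969 lower, and leaving out OreR XY replicate 2 into 919 and 996. Leaving out 1 library gave 700 to 1565 genes in XX (700 without w1118 XX replicate 3, 736 without replicate 2), 656 to 1559 in XY (656 without OreR XY replicate 3, 715 without w1118 XY replicate 2) and 0 to 13 for the interaction. The 6 XY libraries alone gave 592 genes, and DESeq2 gave 56 for the interaction. Leaving out both libraries with the most Hsp70, chosen after seeing the data, gave 1892 genes in XY and 10 for the interaction. The causes were not tested.

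Against single Df/+ libraries in place of line means, the OreR mean lay outside for 21.6% (XX) and 39.7% (XY) of called genes, and the w1118 mean for 5.95% and 15.7%. Spike-in scaling turned the sign of FDY (−0.085), BomS3 (−0.143), Pdfr (−0.143), RpL4 (−0.210), RpL22 (−0.235), Mal-A5 (−0.143), GstT1 (−0.431) and Rh4 (−0.180). All of these values stayed above the median of all genes under that scaling (−0.66), so that their direction relative to the bulk of genes did not turn. Counting each alternative apart, 138 values of single genes lost their call, 13 moved and 8 turned sign, while 1630 stayed the same.

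Replicate numbers did not pair the libraries: deviations of same-numbered libraries correlated from −0.487 to 0.432, and 3 of 12 libraries correlated best with their own number. A replicate block gave 1951 genes with sex as a covariate, 1039 in XX, 1043 in XY and 1 for the interaction. Depth limits the low strain of genes such as CG15408 to under 3 reads per library, and the reference genome may map the strains unequally, which was not tested.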

Other observations

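The families below were chosen after their values were seen, and so their counts are a description, to be set beside 11.5% higher and 9.16% lower among all genes. Cuticle protein genes leaned to w1118, with 4 higher and 15 lower in OreR among 35 tested, and a median log2 fold change of −0.26. Cpr62Bb had 7.48 to 12.96 CPM in OreR and 33.9 to 49.4 CPM in w1118 (−2.001, SE 0.12, adjusted p = 1.60e-07), and Cpr72Ec had 35.2 to 94.2 CPM in OreR and 133 to 249 CPM in w1118 (−1.47, SE 0.19, adjusted p = 0.0001). Neither gene overlapped between strains. Cpr51A went the other way, with 6.46 to 9.96 CPM in OreR and 1.24 to 3.31 CPM in w1118 (2.12, SE 0.21, adjusted p = 1.28e-05).

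The imaginal disc growth factors, secreted chitinase-like proteins, were higher in OreR for 4 of 6 genes tested and lower for 0, with a median of 0.95. Idgf6 had 447 to 999.8 CPM in OreR and 144 to 472 CPM in w1118, so that the ranges overlapped (1.04, SE 0.18, adjusted p = 0.00123). Among 17 neprilysin-like genes, which encode relatives of membrane metallopeptidases, 10 were higher and 1 was lower in OreR (median 0.82). Nepl11 had 142 to 212 CPM in OreR and 55.8 to 117 CPM in w1118 (0.87, SE 0.13, adjusted p = 0.000332). None of the Idgf and Nepl genes that were higher passed with spike-in scaling, where the medians stayed 0.88 and 0.69 above that of all genes. Tetraspanins had 3 higher and 9 lower genes among 26 tested (median −0.20), and 4 neighbours on 2R, Tsp42Ef to Tsp42Ei, were lower together, with log2 fold changes from −0.93 to −0.27.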
